A study of Drosophila melanogaster with 28 samples.

Results

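The H3K27me3 libraries of the cyst cell testis tumours of Drosophila melanogaster are described here: 3 immunoprecipitates (IP) and the 3 inputs with the same replicate numbers, taken by their labels, 6 of the 28 libraries of the series. H3K27me3 is trimethylation of lysine 27 of histone H3. It is laid by Polycomb repressive complex 2 and bound by Polycomb repressive complex 1, and it is best known from broad domains over silent developmental regulators such as the Hox genes, while ordinary active genes carry little of it. In the testis, cyst stem cells are the somatic partners of the germline stem cells. Both answer to Unpaired (Upd), the ligand of the JAK-STAT pathway, and forced Upd makes either lineage accumulate stem-like cells.

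The cyst group carried w[1118], traffic Jam-GAL4 over UAS-Upd and, over a plain chromosome, the histone reporter UAS-FRT-H3-GFP-FRT-H3-mKO. The GAL4 of traffic Jam, a gene of the cyst lineage, drives both Upd and a GFP-tagged histone H3 in these animals, so the tagged cells are those in which the driver is active. An antibody against GFP brought protein A fused to micrococcal nuclease to the tagged chromatin, the released chromatin was divided into an input and an IP with an anti-H3K27me3 antibody, and about 18 to 20 pairs of testes of a strategy were pooled. The libraries called germline below are the 6 H3K27me3 libraries of animals with y[1] w[1118] P{hs70FLP}, the germline driver P{w[+mC]=GAL4::VP16-nanos.UTR} over UAS-Upd, and the same H3 reporter. Chromatin of the cyst group stands in the labels as CySC-like, that of the germline group as GSC-like. Flies were grown at 25 °C and cells were fixed for 5 min in formaldehyde; the age of the animals is not stated. The labels do not say that replicates came from separate flies, and p-values measure only the spread between these libraries.

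The cyst IPs held 4497332, 2596123 and 2821255 fragments in replicates 1, 2 and 3, and the inputs held 3425092, 4009583 and 4076644. A 5-kb bin held a median of 105 to 179 fragments per library. All 6 libraries ran on 1 flow cell, with 4 of the 6 germline libraries. The mark can check the cell type only through chromatin: H3K4me3, a mark of active starts, lay above input at 6 of 6 cyst lineage marker starts in the cyst libraries, with mean log2 IP/input from 0.20 to 0.95. It did so at 3 of 6 germline marker starts (-0.95 to 0.45), 4 of 4 hub marker starts and 4 of 5 muscle sheath marker starts, against 9289 of 13616 promoters. The driver's own gene, tj, was at 0.26 and 0.38, and vas, a germline helicase gene, at -0.69 and -1.21. The germline gene nanos was at 0.55 and 0.36, a mean of 0.45 against 0.32 for tj. The cyst markers zfh1 and ptc had means above 0 but were below 0 in replicate 2, at -0.20 and -0.11. Chromatin of other cell types among the tagged cells was not tested.

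Values below are log2 of IP over the input of the same number, after scaling each library to the median of the autosomes, so 0 means the autosomal median ratio and not the absence of the mark. A feature was called above or below input when limma gave a Benjamini-Hochberg adjusted p under 0.05 and a fold over 1.5 between the 3 IPs and the 3 inputs.

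The 4 bins above input and the 4 below input whose weakest replicate was farthest from 0, among those eligible for printing, are shown as examples of the extremes; they do not stand for all called bins, of which 207 of 417 above input were on the X. The 30 bases at the middle of the 200-bp window with the most IP fragments (above) or input fragments (below) are printed for each from Release 6 of the genome, the dm6 build, plus strand, with G and C in capitals.
trr, X:1885966-1885995: CttCCtttGGtCGCCtGCCttGCtCtCCat
CG42249, X:11103486-11103515: CttGCaatCGaCtGaCatGGtCGCtGGtaG
htk, X:18853526-18853555: CGaGaCGattCaGaaGCtGGaGtGtGCCat
CG11122, X:11119166-11119195: tGCCGGatatCaatGGCttCtGtaGCaCtC
Hsp70Aa and Hsp70Ab bin, 3R:11957446-11957475: ttGtaCatttGtaaGCGCGGtatttaCatt
Hsp23 and Hsp27 bin, 3L:9383806-9383835: tGttGaattaCGGGGCGtattCaaaGGGGC
3L bin with no gene, 3L:24635086-24635115: aaataCCaGtGCtaaCGatCCttattaCtt
3R bin with no gene, 3R:4025246-4025275: GtGtCtCCCtCttCtaaCCaaaaGCttttt
The 4 windows above input were in coding exons of genes on the X and held 15 to 17 G or C of 30. The 4 below input held 10, 15, 10 and 12. They were outside protein-coding genes, and the Hsp70 window lay in an exon of a non-coding transcript. The first of the bins covers part of trr, which encodes an H3K4 methyltransferase of the Trithorax group, at X:1885001-1890000. It held 164, 117 and 88 IP fragments against 36, 62 and 36 input fragments, for log2 IP/input of 1.68, 1.55 and 1.81. All 3 IPs of the trr bin lay above all 3 inputs. In limma on log2(signal + 0.1) the IP minus input difference was 1.40 ± 0.17 (SE), with an adjusted p of 0.00363. After a correction for the G+C content of each bin, 55.7% here, the difference was 0.77 (adjusted p = 0.00515). The bin of CG42249, at 43.8% G+C, changed least of these with the correction: 108, 63 and 70 IP fragments against 27, 19 and 34 input fragments gave 1.36, and 1.32 corrected (adjusted p = 0.0012). The CG11122 bin, at 60.6% G+C, lost its call, with 1.26 uncorrected and 0.31 corrected (adjusted p = 0.135 in limma).

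Among the bins below input, the heat-shock loci kept their values under the same correction. The bin of Hsp23 and Hsp27, which encode small heat-shock chaperones, held 88, 63 and 56 IP fragments against 207, 222 and 271 input fragments. Every IP of that bin was under every input, at -1.38 ± 0.12 (limma, adjusted p = 0.0018) and -1.43 corrected (adjusted p = 1e-05). The bin of Hsp70Aa and Hsp70Ab, at 3R:11955001-11960000, held 13, 3 and 7 IP fragments against 56, 29 and 62 input fragments (limma -1.42, adjusted p = 0.00762). These are near-identical copies of the inducible chaperone gene, so how their fragments were placed is uncertain. Both heat-shock bins were also low in the other cyst marks. The Hsp23 and Hsp27 bin was at -0.90 and -1.52 in H3K4me3 and at -0.90 and -1.35 in H3K9me3. The Hsp70 bin was at -0.92 and -1.84 in H3K4me3 and at -1.35 and -1.98 in H3K9me3. The 3L bin with no gene, at 29.6% G+C, was at -0.89 uncorrected and 0.07 corrected (adjusted p = 0.865).

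Across the genome, IP and input differed little and over short stretches. Of 25728 bins tested, 417 were above input (1.62%) and 437 below (1.70%). These counts depended on the settings: a pseudocount of 0.5 in place of 0.1 left 69 and 87, and a limma fit of all 12 H3K27me3 libraries left 0 and 0, with 3893 bins at an unadjusted p under 0.05, while edgeR gave 650 and 542. All 3 replicates were above 0 in 26.0% of bins and below 0 in 29.2%. The called bins above input had medians of 0.82, 0.87 and 0.76 in replicates 1, 2 and 3, and those below had -0.94, -0.84 and -0.64. With replicates as blocks, since IP and input of a number share their chromatin, the bins below input numbered 749. With replicate 3 left out, no bin passed: the lowest adjusted p was 0.164 and 3522 bins had an unadjusted p under 0.05. Without replicate 1, 196 bins were below.

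Merging called bins across gaps of 1 bin gave 350 stretches above input, of which 297 were single bins and 11 held 3 or more called bins. Below input there were 376 stretches, 325 of them single bins, and 9 held 3 or more. Broad blocks were thus few on this scale. The longest above input spanned 35 kb at X:6815001-6850000 with 5 called bins, and held Tmf, Atx-1, CG4558, Nf-YC, iav, nonC, Cht11, xit, CG14435 and mAChR-C. It averaged 0.70, 0.83 and 0.68 over the replicates. Next came X:1455001-1475000, with 4 called bins and 11 genes, Rab27 and O-fut2 among them, at 1.04, 0.74 and 0.58. The other 6 of the 8 leading stretches held 3 called bins each. They covered CG11122, CG42249 and the chaperonin gene Hsp60A (X:11100001-11120000, 0.67, 0.96 and 0.94), FASN1 and FASN2, which encode fatty acid synthases, with toc (2L:3050001-3075000, 0.56, 0.60 and 0.53), and the ubiquitin ligase gene HUWE1 (X:15715001-15730000, 0.95, 1.18 and 1.19). The last 3 covered the GATA cofactor gene ush with nAChRbeta3, Spp, Ets21C and lwr (2L:530001-550000, 0.79, 0.69 and 0.52), the Ras regulator gene raskol (X:17745001-17765000, 0.66, 1.04 and 0.73), and 9 genes around Polr2A, which encodes the largest subunit of RNA polymerase II (X:11565001-11585000, 0.68, 0.82 and 0.65). None of the 72 Polycomb target genes described below lay in these 8, and 6 of the 8 were on the X. The 8 stretches hold few of the 13968 protein-coding genes. The lack of overlap with a list of 72 therefore says little about the Polycomb targets. Together the 8 stretches held 6 bins that stayed called after the G+C correction.

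The leading stretches below input lay over genes of the X and 2L or in DNA near the centromeres. The largest, 2L:16515001-16540000 over CG5953, was at -1.42, -0.50 and -0.34, so that replicate 1 was far lower than the other two. On the X, fs(1)h, which encodes a bromodomain protein, and mys, which encodes an integrin beta subunit, shared X:8045001-8065000 at -0.87, -0.70 and -0.40, and CHES-1-like, a forkhead gene, had X:7690001-7710000 at -1.19, -0.57 and -0.57. Near the centromere of chromosome 3, stretches over mRpS5 (3L:24530001-24545000) and l(3)80Fg (3L:25830001-25845000) were at -0.93, -0.95 and -0.78 and at -0.77, -0.93 and -0.61. The other 3 had no gene (2L:23325001-23345000), lovit (3L:25295001-25310000) and CG41520 (2R:1645001-1660000), with means of -0.67, -0.77 and -0.77. All 8 were at 42.2% G+C or less.

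Base composition moved with the ratio in every replicate. Bins under 35% G+C had medians of -0.65, -0.69 and -0.35 (940 bins), bins of 40 to 45% had -0.02, 0.04 and 0.02 (12480 bins), and bins of 55% or more had 0.92, 0.76 and 0.69 (61 bins). Of the bins under 35%, 11.3% were called below input and 0% above, and of those from 50 to 55%, 21.4% were called above and 0% below. Spearman's correlation of the ratio with G+C over the 25728 bins was 0.51, 0.49 and 0.37, a description across bins of shared libraries. The median G+C was 50.2% in bins above input, 37.1% in bins below and 42.1% in all. Input coverage moved the other way, with a median signal of 0.56 in bins above, 1.21 in bins below and 0.99 in all. Input is the denominator of the ratio used for the calls, so its level is not independent of them. After the G+C correction, which removes a smooth trend of each library on G+C, 150 bins were above (0.583%) and 204 below (0.793%), of which 86 and 132 were also called without it.

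**Figure D1:**
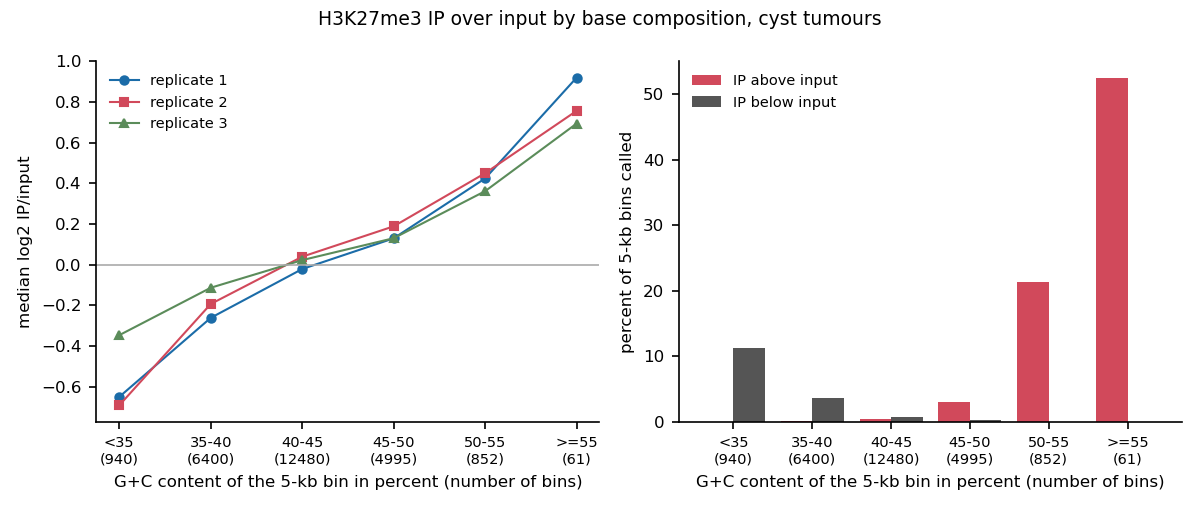
Left, median log2 H3K27me3 IP/input of 5-kb bins in classes of G+C content for each cyst replicate; right, the percent of bins of each class called above or below input. The medians run from -0.69 to -0.35 in the lowest class to 0.69 to 0.92 in the highest, and calls above input make up 52.5% of the 61 bins in the highest class.

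The pattern shared by the replicates remained in part after the G+C correction, and it was shared within single bins more than between neighbours. Spearman's correlation between replicates over bins was 0.59, 0.56 and 0.61, and 0.43, 0.45 and 0.52 after the correction. The 257 bins highest in a pair of replicates had medians of 0.76, 0.84 and 0.75 in replicates 1, 2 and 3 when that replicate was the one left aside, against -0.06, 0.01 and 0.01 over all bins. With corrected values the same choice gave 0.47, 0.55 and 0.50. The 257 lowest gave -0.90, -0.84 and -0.58, and -0.56, -0.63 and -0.54 corrected. The mean correlation between different replicates was 0.61 in the same bin, 0.27 between neighbours 5 kb apart, 0.22 at 20 kb and 0.15 at 200 kb, with corrected values of 0.47, 0.24, 0.16 and 0.08. Of the distances given, the same bin had the highest correlation, and each longer distance a lower one.

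The X chromosome held more bins above input than its size. There were 207 on the X, 4.69% of its 4414 bins, against 41 to 59 on each of 2L, 2R, 3L and 3R (0.667% to 1.24%). Bins below input were spread otherwise, with 60 on the X (1.36%) and 63 to 128 on the autosomal arms (1.03% to 2.41%). After the G+C correction the X held 62 of the 150 bins above. The median ratio of the X exceeded that of chromosomes 2 and 3 by 0.07, 0.15 and 0.13, on average 0.12 ± 0.04 (SD, n = 3), and by 0.12 after the correction. As coverage, the log2 level of the X relative to those chromosomes was -0.76, -0.75 and -0.71 in the IPs and -0.83, -0.89 and -0.85 in the inputs. All 3 IPs lay above all 3 inputs, and the exact two-sided permutation test gave p = 0.1, the smallest that 3 against 3 allows. On chromosome 4, which is small and largely heterochromatic, the median ratios were -0.49, -0.43 and -0.19, and 0.06, 0.10 and 0.09 after the correction. It held 0 bins above and 7 below of 253 (2.77%), against 1.62% and 1.70% of all bins. After the correction it held 3 above and 0 below, against 0.583% and 0.793% of all bins.

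Over gene bodies, from annotated start to end, 893 of 13497 genes tested were above input (6.62%) and 173 below (1.28%). All 3 replicates were above 0 in 36.1% and below 0 in 21.2%. With replicate blocks 286 genes were below. A pseudocount of 0.5 left 372 above and 94 below, and the limma fit of 12 libraries left 1 and 0. Scaled by TMM, which centres the genes tested (a median of 0.01 against 0.08), 624 were above and 273 below. The calls needed all 3 replicate pairs: in limma no gene passed without replicate 1, 2 or 3, where the lowest adjusted p was 0.0839, 0.0630 and 0.109 and 3203, 3252 and 2599 genes had an unadjusted p under 0.05. After the G+C correction no gene passed either, with a lowest adjusted p of 0.0536 and 2999 genes at an unadjusted p under 0.05. Genes above input were short and G+C-rich, with a median length of 1717 bp and 51.7% G+C, against 2247 bp and 45.7% over all genes, and those below had 1206 bp and 40.9%. The X held 300 of the 893, or 14.8% of its 2028 genes, against 4.09% to 6.06% on the 4 large autosomal arms.

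Or2a, an odorant receptor gene at X:2246231-2247567, stood highest. Its signal was 2.18, 5.01 and 6.70 in the IPs, against 0.790, 0.893 and 0.759 in the inputs. The IPs did not overlap the inputs and were far apart among themselves, with replicate 1 lowest. The limma difference was 2.24 ± 0.36 (SE, adjusted p = 0.0159), and 1.85 after the G+C correction (adjusted p = 0.0626). The pair-rule homeobox gene eve (2R:9979319-9980795) came next, with 1.12, 1.57 and 0.912 in the IPs against 0.230, 0.263 and 0.424 in the inputs. Every IP lay above every input, at 1.68 ± 0.24 (limma, adjusted p = 0.0125) and 0.77 corrected (adjusted p = 0.0928). The eve body was 60.3% G+C. In the cyst H3K4me3 libraries eve was at 1.29 and 1.45 and Or2a at 1.48 and 1.62, so both were also above input in that mark.

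The other 10 genes leading above input had limma differences from 1.35 to 1.64. CG13996, at 2L:6020835-6021718, had signals of 1.44, 1.53 and 1.38 in the IPs against 0.384, 0.473 and 0.338 in the inputs. Its replicates were the tightest of the first 5 genes, at 1.78, 1.64 and 1.94. In cyst H3K4me3 the CG13996 body was higher still, at 2.27 and 2.19. Next was sro, which encodes an enzyme of ecdysteroid synthesis, with 2.15, 2.46 and 2.27 against 0.656, 1.19 and 0.444, where the inputs varied more than the IPs. The Notch target gene E(spl)m4-BFM had 1.64, 1.59 and 1.32 in the IPs against 0.298, 0.472 and 0.747 in the inputs, again with the spread in the inputs. The rest were CG14212, CG12723, fig, CG11095, CG31937, Had1 and Hakai, the last encoding a ubiquitin ligase, with 1.35 to 1.43 and adjusted p from 0.0101 to 0.0122. All 12 had replicates of 0.81 or more, and their bodies held 48.5% to 60.3% G+C. The 12 were chosen for large differences of equal sign in all replicates, so the agreement of their replicates is not separate support.

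The 8 leading genes below input had limma differences from -1.52 to -1.19. CG11267, at 3L:13016050-13016903, had 0.443, 0.817 and 0.560 in the IPs against 2.17, 2.03 and 1.5 in the inputs. No IP reached the lowest input, and the difference was -1.52 ± 0.22 (limma, adjusted p = 0.0126) and -1.60 corrected (adjusted p = 0.0536). Nop10, which encodes a protein of the H/ACA ribonucleoprotein that guides RNA modification, had 1.21, 0.732 and 1.14 against 2.38, 2.59 and 3.13. Sf3b5, which encodes a splicing factor subunit, had 1.02, 2.01 and 1.53 against 3.47, 3.71 and 4.28. The inputs of these genes were all well above the autosomal median of 1, while the IPs were nearer to it. The genes were chosen for low ratios to the same inputs, so high inputs are in part a result of the choice. Spf30, cer, CG43798, CG4456 and RpS28b followed, with differences from -1.28 to -1.19 and adjusted p from 0.0101 to 0.0419. RpS28b has close paralogues, and reads between them may have been shared.

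**Figure D2:**
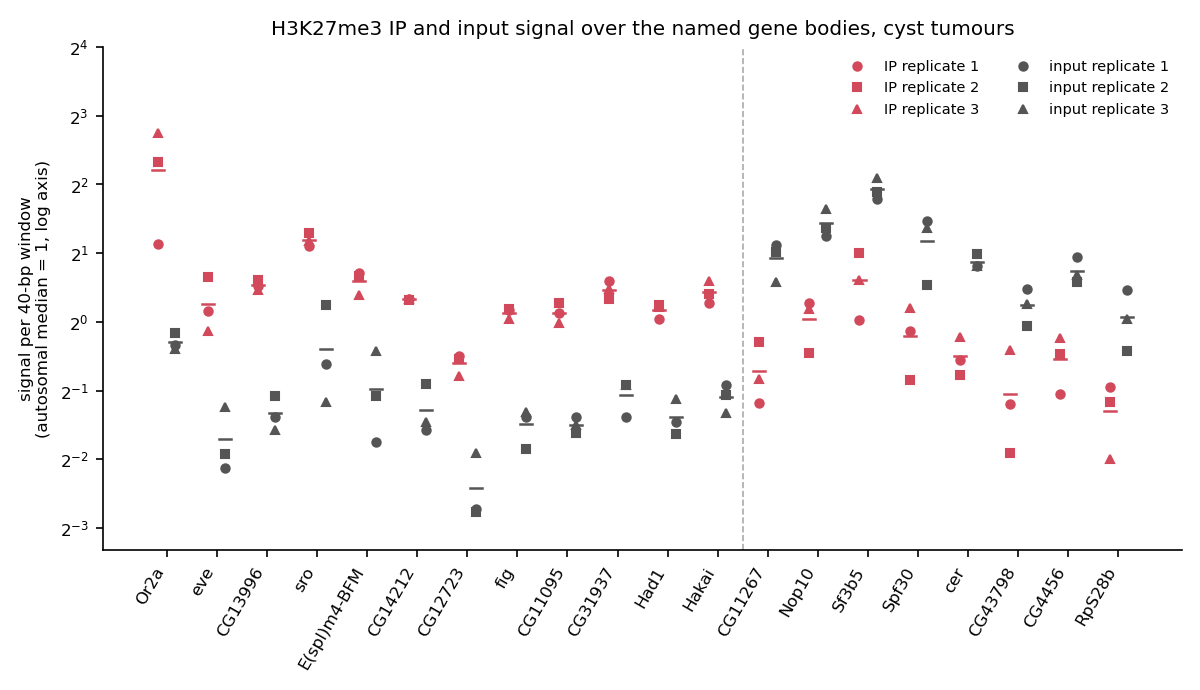
Signal per 40-bp window (autosomal median 1, log axis) over gene bodies in each cyst H3K27me3 IP and input. The 12 leading genes above input are left of the dashed line and the 8 below are right of it. Dashes are arithmetic means of the signals. IPs and inputs do not overlap for any gene drawn, and Or2a spreads from 2.18 to 6.70 in the IPs. The genes were chosen for large differences between the same IPs and inputs, so the lack of overlap follows largely from the choice.

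The classical Polycomb targets, 72 genes mostly for transcription factors of development, leaned above input by a small amount. Over gene bodies 8 of 72 were above (11.1%) and 0 below, against 6.62% and 1.28% of all genes. Their medians were 0.17, 0.40 and 0.22 in replicates 1, 2 and 3, against 0.03, 0.13 and 0.09 over all genes, and 48 of 72 (66.7%) were above 0 in all replicates, against 36.1%. After the G+C correction the medians were 0.16, 0.27 and 0.20, against 0.01, 0.00 and 0.00. With TMM scaling the median limma difference was 0.15, against 0.01 for all genes, and 6 genes were called. Beside eve, those above were the homeobox genes bap, ind, en and cad, the T-box gene Doc3, the forkhead gene slp1 and wor, a Snail family gene. The values of slp1 were 1.33, 1.43 and 0.95, those of ind 1.03, 0.72 and 1.11, and those of cad 0.78, 0.87 and 0.70. All 3 were well above 0 in each replicate, and cad moved least with the correction, with limma differences of 0.73 before it and 0.67 after it (adjusted p = 0.0126 and 0.0536). The lowest 3 of the list were pb, toy and ap, with means of -0.20, -0.15 and -0.11, and none of them passed the test.

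The homeobox gene en, which sets posterior compartments, was the only other fixed gene called. Its signal was 0.925, 1.02 and 1.00 in the IPs against 0.637, 0.610 and 0.603 in the inputs, without overlap, for 0.59 ± 0.10 (limma, adjusted p = 0.0189) and 0.21 corrected (adjusted p = 0.270). Its neighbour and relative inv had 1.11, 1.36 and 1.19 against 1.02, 1.11 and 1.01, a difference of 0.20 that did not pass (adjusted p = 0.266). Over the whole en and inv region, 2R:11474465-11528210, the ratios were 0.19, 0.37 and 0.28, on average 0.28 ± 0.09 (SD, n = 3), against 0.01, 0.15 and 0.12 in the 100 kb on each side. The region exceeded its flanks by 0.19 ± 0.03, in all replicates. Of its 12 bins, 9 (75%) were above 0 in all replicates, against 26.0% of all bins. No bin was called, where 1.62% of all bins were above input and 1.70% below. Over the same region cyst H3K9me3 was at 0.29 and 0.28 and cyst H3K4me3 at 0.25 and 0.26. The segment polarity gene hh, which encodes the Hedgehog ligand, was at 0.39 (adjusted p = 0.0640), wg, which encodes a Wnt ligand, at 0.18 and the limb gene Dll at 0.23, and none of these 3 passed.

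The bithorax complex, which holds the posterior Hox genes Ubx, abd-A and Abd-B, lay slightly above its flanks. From 3R:16656623 to 3R:16972236 its ratios were 0.10, 0.35 and 0.23, on average 0.23 ± 0.13 (SD, n = 3), against -0.10, 0.07 and 0.00 in its flanks. The complex exceeded the flanks by 0.23 ± 0.04 and did so in each replicate, while 38 of its 64 bins (59.4%) were above 0 in all replicates, against 26.0% of all bins. Of the 64 bins, 2 were called above input and 0 below, where 1.62% and 1.70% of all bins were called. The excess was measured against the 100 kb on each side. Farther out, past the Ubx end, ratios of this size and above occurred too. Means of 5-kb bins at 202500, 212500 and 222500 bp from the Ubx start were 0.48, 0.53 and -0.14. Ubx itself had signals of 1.03, 1.28 and 1.08 in the IPs against 0.926, 1.03 and 0.944 in the inputs. The lowest IP and the highest input were level, and the difference of 0.20 ± 0.12 did not pass (limma, adjusted p = 0.282). The differences of abd-A and Abd-B were 0.09 and 0.13 (adjusted p = 0.617 and 0.442). H3K9me3 in the cyst libraries was at 0.30 and 0.29 over the same complex, and H3K4me3 at 0.04 and 0.18.

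The Antennapedia complex, with the anterior Hox genes, showed no such excess. Its ratios were -0.19, 0.07 and -0.11 (3R:6661427-6999228), on average -0.08 ± 0.13, against -0.12 ± 0.06 in its flanks. The difference of 0.04 ± 0.09 was within the spread of the replicates. No bin of 68 was above input and 1 was below, where 1.62% and 1.70% of all bins were called, so these counts say little. Of its genes, Antp, Scr, Dfd, lab and pb had limma differences of 0.01, 0.02, 0.08, -0.09 and -0.18, with adjusted p from 0.300 to 0.944. The signs of Antp and Scr turned with TMM scaling (-0.05 for each), so neither has a direction here.

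**Figure D3:**
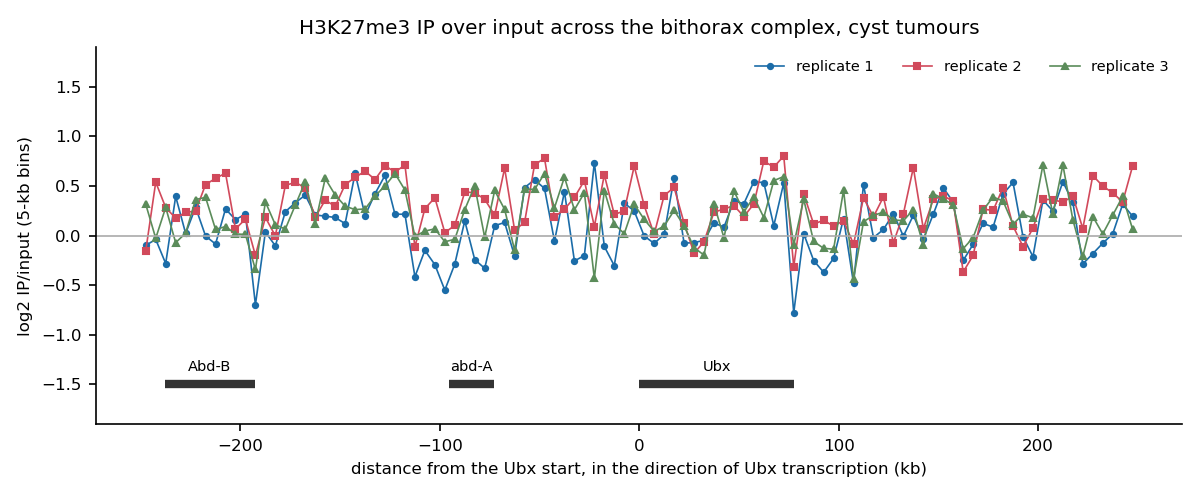
Log2 H3K27me3 IP/input in 5-kb bins by distance from the Ubx start (kb) for each cyst replicate, with the gene bodies of Abd-B, abd-A and Ubx as bars. The complex is highest in replicate 2 (0.35) and lowest in replicate 1 (0.10), and the variation between neighbouring bins is larger than any step at its edges.

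At gene starts the ratio dipped, and the Polycomb targets did not share the dip. In windows of 500 bp on each side of the start, 226 of 13616 promoters were above input (1.66%) and 1812 below (13.3%), and 14.2% were above 0 and 39.8% below 0 in all replicates. With replicate blocks these counts were 443 and 2963, with the 12 libraries 8 and 122, with TMM scaling, which moves the median promoter from -0.21 to 0.01, 661 and 1082, and with the G+C correction 402 (2.95%) and 926 (6.80%). No promoter passed without replicate 3 in limma, with a lowest adjusted p of 0.0963 and 2750 at an unadjusted p under 0.05. Without replicate 1 the counts were 67 above and 549 below, and without replicate 2 they were 123 and 1807. From 100 bp before to 200 bp after the start, the pooled fragments of all 13968 genes gave -0.42, -0.23 and -0.22, on average -0.29 ± 0.11 (SD, n = 3), against 0.04 ± 0.08 from 500 to 1500 bp downstream. The 72 Polycomb targets gave 0.35, 0.55 and 0.29 around the start (0.40 ± 0.14) and 0.22 ± 0.16 downstream. Around the start their replicates were all above 0 where all replicates of all genes were below. From 1500 to 500 bp upstream they were not higher than all genes, with -0.28, 0.04 and -0.01 (-0.08 ± 0.17) against -0.04 ± 0.09.

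Of the 71 Polycomb target promoters tested, 10 were above input, C15, ems, slou, lbl, exex, Doc3, eve, unpg, eya and tup, most of them homeobox genes (14.1%, against 1.66%). With TMM scaling 21 were above, and after the G+C correction 4 (5.63%, against 2.95%). Their median was 0.34, against -0.21 over all promoters. Averaged over the replicates, the median of the list exceeded that of all features by 0.59 at promoters and by 0.18 over gene bodies. The gap at promoters narrowed with the G+C correction. The median limma difference was 0.31 for the list and -0.21 for all promoters before it, and 0.27 and 0.03 after it. The leaders were unpg at 1.47, 1.28 and 1.21 and C15 at 1.44, 1.31 and 1.10, and both kept close values in all replicates. Their limma differences were 1.19 and 1.16 (adjusted p = 0.0161 and 0.0155), and neither passed after the G+C correction (adjusted p = 0.190 and 0.0528). The eye and cyst cell gene eya, with 0.71, 0.69 and 0.99, was at 0.74 ± 0.22 (adjusted p = 0.0365) and was the only one of the 10 still called after it (0.92, adjusted p = 0.0121). Psc was called below, at -0.74, -0.79 and -1.02 (adjusted p = 0.0242), and was not called with TMM scaling, while after the G+C correction it was still called, at -0.94 (adjusted p = 0.00418). It encodes a subunit of Polycomb repressive complex 1 and was on the list as a target.

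**Figure D4:**
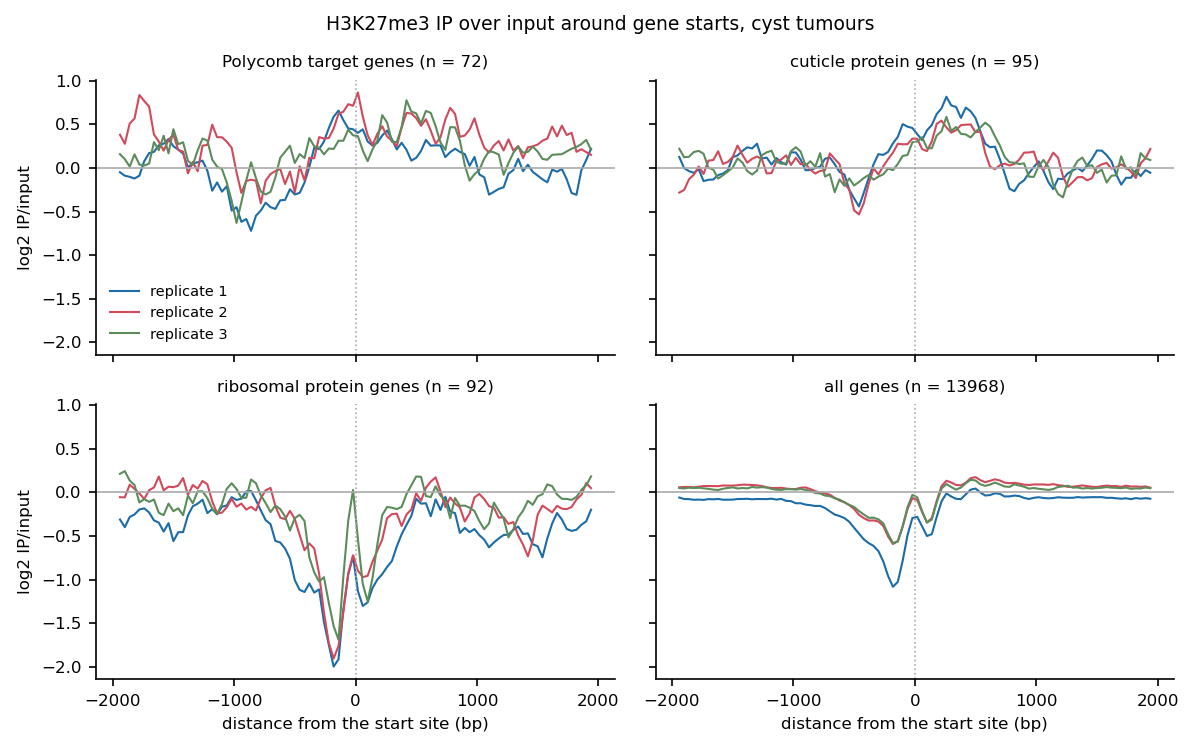
Log2 H3K27me3 IP/input by distance from the annotated start (bp) of pooled fragments for 4 gene sets in each cyst replicate. Ribosomal protein genes dip most (-0.86 around the start), all genes dip less (-0.29), and Polycomb targets and cuticle protein genes are above 0 around it.

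The cyst lineage genes split by window. Over gene bodies 0 of 13 were above or below input, with a median of 0.18, and hop, the JAK kinase gene, had the highest value at 0.52 (adjusted p = 0.0334, under the fold limit of 1.5). At promoters 5 of 13 were below input (38.5%, against 13.3%) and 1, eya, was above. The 5 encode the Upd receptor (dome), its kinase (hop), the feedback inhibitor Socs36E, the transcriptional repressor Ken (ken) and the EGF receptor (Egfr). The promoter of dome was at -1.57, -1.74 and -1.17 (limma -1.38 ± 0.25, adjusted p = 0.00529) and that of Egfr at -0.97, -2.40 and -1.39 (-1.46 ± 0.35, adjusted p = 0.0171). Both were far below 0 in every replicate, and they and hop were also called after the G+C correction, whereas ken and Socs36E were not. With TMM scaling 3 of the 5, dome, Egfr and ken, were called. Promoters of tj, zfh1 and chinmo, which encode transcription factors of the cyst stem cells, had differences of -0.40, -0.29 and -0.46 and did not pass. Over its body tj was at -0.59, -0.06 and -0.83, so the replicates differed widely (-0.44 ± 0.17, adjusted p = 0.127).

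Genes of the other testis cells gave 0 or 1 call per list over bodies, where 6.62% of all genes were above and 1.28% below, so counts this small say little of these lists. None of 13 germline genes was above or below input over bodies or promoters, with a median of 0.00 over bodies, and vas, nanos and the differentiation gene bam were at -0.24, 0.01 and -0.19. The sign of nanos turned with TMM scaling (-0.06). None of 9 hub and sheath genes passed over bodies, and 1 promoter of 9, that of Mef2, was below (11.1%, against 13.3%). The transgene's own gene, upd1, was at 0.28 with replicates of 0.91, -0.14 and 0.25. Of 18 spermatocyte genes 1 was above (5.56%): betaTub85D, which encodes the tubulin of the sperm tail, was above input at 0.59 ± 0.12 (0.61, 0.60 and 0.69, adjusted p = 0.0273), and 0.23 after the correction.

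Genes of the cuticle and of the senses, silent in most tissues, also had members above input, and for the senses their share was near that of all genes. Of 90 cuticle protein genes tested, 18 were above (20%, against 6.62%) and 0 below (against 1.28%), with medians of 0.40, 0.41 and 0.42, against 0.03, 0.13 and 0.09 over all genes. The median G+C of their bodies was 49.2%, against 45.7% over all genes, and after the correction the medians were 0.22, 0.12 and 0.08. Twdlbeta at 1.80, 1.49 and 0.86 and Cpr47Eb at 1.33, 1.34 and 1.37 led, with limma differences of 1.28 and 1.26. Cpr47Eb was alike in all replicates and Twdlbeta was not. Around the start the 95 annotated genes gave 0.34 ± 0.10, and 0.02 ± 0.04 further downstream. Of 177 sensory receptor genes tested, 16 were above (9.04%, against 6.62%) and 0 below, 8 of the 16 on the X, with medians of 0.24, 0.18 and 0.12. At promoters 2 of 177 were above (1.13%, against 1.66%). Next to Or2a stood Gr5a, a sugar receptor gene, at 1.04, 2.32 and 0.75 and Ir68b at 1.09, 1.34 and 0.90.

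Ribosomal protein genes had the largest share of bodies called below input among the lists, and their body medians did not shrink with the G+C correction, whereas their promoter values did. Over bodies 2 of 92 were above and 13 below (14.1%, against 1.28%), and 47 (51.1%) were below 0 in all replicates, against 21.2%. The medians were -0.52, -0.26 and -0.20, and -0.59, -0.42 and -0.33 corrected. RpL39, at -1.28, -0.74 and -0.89, and RpS27, at -0.99, -0.80 and -0.69, had adjusted p of 0.0118 and 0.0122 in limma. Both were below 0 by a clear margin in each replicate. At promoters 29 of 90 were below (32.2%, against 13.3%) and 0 above, and with TMM scaling 21. After the G+C correction 22 were below (24.4%, against 6.80%), 17 of them among the 29, and the median difference at promoters was -0.51, against -0.80 before it. Around the start the pooled fragments gave -1.07, -0.79 and -0.73 (-0.86 ± 0.18), and -0.27 ± 0.11 downstream. In the cyst H3K4me3 libraries the bodies of these genes had a median of 0.90, against 0.31 over all genes.

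Genes embedded in pericentric heterochromatin, among them lt and rl, were also low, and before the correction lower by median than the ribosomal protein genes. All 10 were below 0 in all replicates, with medians of -0.53, -0.61 and -0.44, and -0.20, -0.22 and -0.16 after the correction. Their bodies had a median of 37.9% G+C. RpL15 was the only one called over its body (-0.90 ± 0.18, adjusted p = 0.0268), and 4 promoters of 10 were called below, those of rl, cta, lt and RpL5 (40%, against 13.3%). After the G+C correction 1 of the 4 was still called, RpL5, at -1.10 (adjusted p = 0.0197), while rl, cta and lt were at -0.41, -0.08 and -0.07 (adjusted p = 0.338, 0.849 and 0.873). The call of cta was also lost with TMM scaling.

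**Figure D5:**
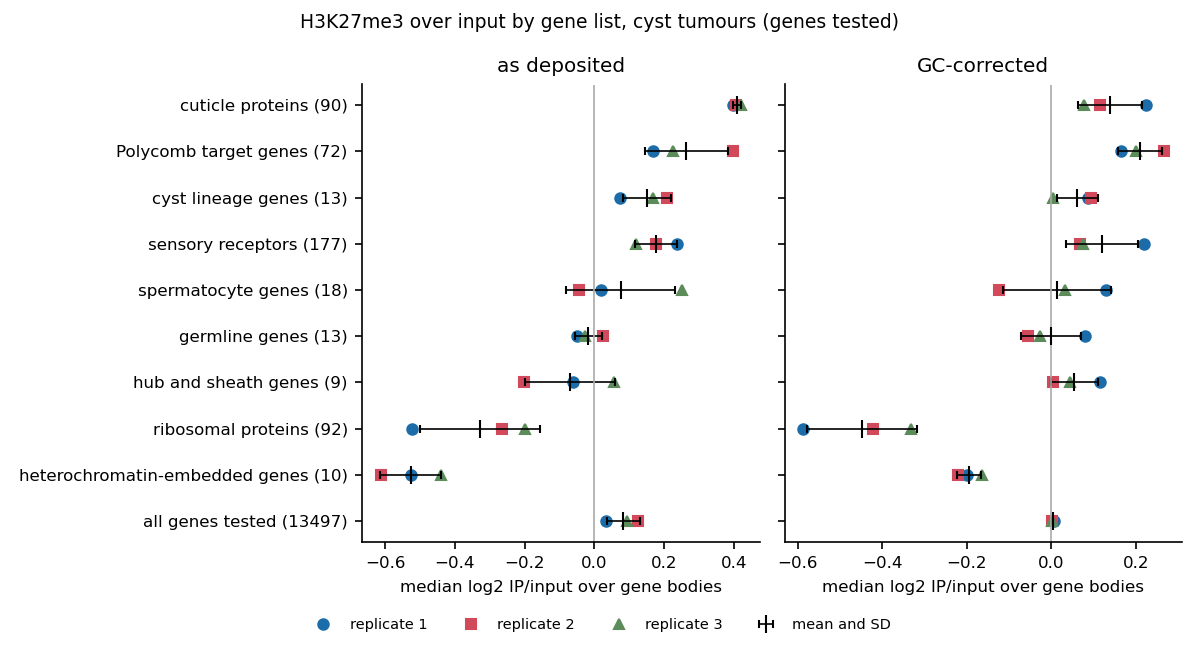
Median log2 H3K27me3 IP/input over the gene bodies of each list in each cyst replicate, as deposited (left) and after the G+C correction (right); the upright dash and bar are the mean and SD of the 3 replicate medians, and numbers in brackets count the genes tested. Polycomb targets change little between the panels, cuticle protein genes fall towards 0, and ribosomal protein genes stay lowest or nearly so in both.

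The called bins were not apart from the other marks. Of the 417 bins above H3K27me3 input, 416 and 417 were above 0 in cyst H3K4me3 replicates 1 and 2, against 13588 and 12913 of all 25728 bins. Their median was 0.83 in H3K4me3 and 0.35 in H3K9me3, against 0.01 and 0.02 over all bins. The bins below input had medians of -0.35 and -0.47. Over gene bodies, the 893 above input had medians of 0.96 in H3K4me3 and 0.21 in H3K9me3, against 0.31 and -0.07 over all genes. Of the 893, 886 were above 0 in mean H3K4me3 (99.2%, against 77.2% of all genes). The 173 genes below input had 0.24 and -0.70. Spearman's correlation of the H3K27me3 ratio with cyst H3K4me3 over bins was 0.37 to 0.61 over the 6 pairs of replicates, with H3K9me3 0.29 to 0.52, and after the G+C correction 0.11 to 0.48 and 0.18 to 0.47. These are ratios to separate inputs, and the correlations describe bins that share base composition. The lists did differ between marks: over bodies the Polycomb targets had medians of 0.25 in H3K27me3, 0.34 in H3K9me3 and 0.18 in H3K4me3. All genes had 0.09, -0.07 and 0.31, so the list stood farthest above all genes in H3K9me3.

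Between cyst and germline tumours no bin or gene differed past the threshold in H3K27me3 over input. The difference of the IP effects, cyst minus germline, passed an adjusted p of 0.05 in limma in 0 of 25945 bins, with 1107 at an unadjusted p under 0.05 and a lowest adjusted p of 0.900, and edgeR and DESeq2 called 0 as well. Over gene bodies 0 of 13624 passed, with 423 at an unadjusted p under 0.05. The 417 bins above input in cyst had a median of 0.50 in the mean of the germline replicates, and 410 of them were above 0 there. The germline replicates varied more: the bithorax complex was at 0.10, 0.35 and 0.23 in cyst and at 0.59, 0.10 and 0.09 in germline, and en at 0.53, 0.74 and 0.73 in cyst and at 1.57, 0.59 and 0.54 in germline. Or2a was at 1.43, 2.46 and 3.11 in cyst and at 1.98, 0.30 and 0.10 in germline, a limma difference of 1.51 ± 0.61 (SE) that did not pass (adjusted p = 0.994). The germline IPs differed widely in depth, with 942943, 3050867 and 12640531 fragments in replicates 1, 2 and 3. The part of depth in the germline spread was not tested. Detection of cyst minus germline differences was not tested on simulated data.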

How the data were processed

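The authors deposited coverage signal for each library, 1 value every 20 bp over windows of 40 bp, per the file headers. The submitters' processing notes name Bowtie2 2.4.5 and dm6; no filter on reads or fragment size is stated there or in the labels. Chromosome lengths of 7 of 7 chromosomes equal those of the Release 6 annotation used. In 28 of 28 libraries the deposited signal was a whole fragment count divided by the autosomal median (100% of values whole within 0.01), so genome-wide amounts of the mark are lost. Fragments were recovered from the overlapping windows. The scaling removes depth.

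Fragments were summed in 5-kb bins, gene bodies and promoters of 13968 protein-coding genes; overlapping genes share fragments, and other start sites were not measured. Features with a mean of 10 or more fragments were tested with limma 3.58.1 (R 4.3.3, mean-variance trend) on log2(signal + 0.1), 3 IPs against 3 inputs without a block, which understates changes at low values. Per-replicate ratios add 1 fragment to each count. In the limma fits the G+C correction subtracts a lowess curve (span 0.3) per library. Corrected values per replicate, such as list medians and correlations, subtract such a curve from the ratio of each replicate. edgeR 4.0.16 and DESeq2 1.42.0 on recovered fragments were alternatives.

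Per the labels' protocols, 1 batch of soluble chromatin gave the IP and the input of a number, so these pair. Their deviations correlated by 0.47, 0.54 and 0.02 over bins, 0.25, 0.31 and 0.04 over gene bodies and 0.27, 0.36 and 0.05 over promoters.

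Named genes are the up to 12 above and 8 below with the largest difference among those past the threshold, of equal sign in all replicates and with 20 or more fragments per library, up to 8 merged stretches of bins in each direction, and 22 fixed genes. The 9 lists, their called members named in the text, and these rules were chosen with earlier results of these data known. Bins eligible for printed sequence had a mean of 20 or more fragments and were off chromosome arm 2R. Cuticle, sensory receptor and ribosomal lists match symbols.

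On simulated counts with 200 features changed by 1 on the log2 scale, limma recovered 87.5% of 25728 bins' changes with 9 false calls, 69.5% among 13497 gene bodies with 7, and 41% among 13616 promoters with 3. Changes of 2 were recovered at 98.5%, 97% and 98.5%. The simulated counts had no trend on G+C and no pairing of IP and input. Their false calls therefore do not measure those among the calls made here. The motifs GAGAG and GCCAT, searched on both strands, were in 99.5% and 100% of bins above input and in 99.5% and 99.9% of all bins.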

Additional observations from a re-analysis of the deposited data

Results flagged for a closer look

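For 2 of the 41 named genes the cyst and germline replicates lay on opposite sides of 0 over the gene body. The share of all genes that did so was not computed, so the count of 2 says little by itself. The Hox gene lab was at -0.14, -0.01 and -0.14 in cyst and at 0.53, 0.21 and 0.04 in germline, a cyst minus germline difference of -0.36 between the means. The difference itself was -0.33 ± 0.18 (SE) in limma and did not pass (adjusted p = 0.994). The stem cell transcription factor gene chinmo was at 0.07, 0.15 and 0.18 in cyst and at -0.34, -0.27 and -0.06 in germline, a difference of 0.36 between the means. In limma it was 0.33 ± 0.17 (adjusted p = 0.994). Neither gene was called above or below input in cyst, and the third germline pair was sequenced on a flow cell of its own. The IP of the first germline pair was the shallowest, at 942943 fragments, against 3050867 and 12640531 in the others.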

How the results depend on the processing

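Counts are given as above and below input. For bins, against 417 and 437, the counts were 69 and 87 with a pseudocount of 0.5, 438 and 749 with the replicate block, 150 and 204 with the G+C correction, 177 and 230 with correction and replicate block, 650 and 542 with edgeR, 0 and 0 in a fit of all 12 H3K27me3 libraries, and 1106 and 851 with no limit on the fold. Bins of 2 kb gave 1996 and 1444, bins of 20 kb 10 and 21. Leaving out a replicate gave 0 to 422 and 0 to 685. For gene bodies, against 893 and 173, they were 372 and 94, 914 and 286 with the replicate block, 0 and 0 with the correction and with correction and replicate block, 860 and 519 with edgeR, 419 and 346 with DESeq2, 624 and 273 with TMM, 1 and 0 with 12 libraries, and 1221 and 265 with no limit on the fold. Leaving out any replicate gave 0 and 0. For promoters, against 226 and 1812, they were 443 and 2963 with the replicate block, 402 and 926 with the correction, 595 and 1134 with correction and replicate block, 687 and 1106 with edgeR, 170 and 414 with DESeq2, 661 and 1082 with TMM, and 8 and 122 with 12 libraries. Leaving out a replicate gave 0 to 123 and 0 to 1807. The Polycomb list's excess over all genes was 0.18 over bodies and 0.59 at promoters. With the correction the median limma difference at promoters was 0.27 for the list and 0.03 for all promoters, a smaller gap. The causes of these shifts were not tested.

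All 21 named genes called over bodies lost their call after the G+C correction and without any one replicate, 20 with 12 libraries, 10 in DESeq2, and 0 with the block, without a filter or in edgeR. Signs turned for 4 genes near 0: Antp (-0.057 in edgeR, -0.072 in DESeq2, -0.054 with TMM, and -0.043 to 0.057 with a replicate left out), Scr (-0.059, -0.075, -0.053, and -0.067 to 0.11 in the same order), Dfd (-0.0012 in DESeq2) and nanos (-0.062, -0.075, -0.059, and -0.14 to 0.16). The cyst minus germline count was 0 in every alternative run. Replicate 3 was dropped also as the doubted pair, an alternative chosen after seeing the data. Depth, 2596123 to 4497332 fragments per IP, limits single promoters and short genes most.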

Other observations

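A stretch of 2 called bins at X:2790001-2800000, over w, kirre and CG32795, was chosen after its values were seen. It held 433, 774 and 1215 fragments in the cyst IPs, against 213, 327 and 258 in the inputs, for ratios of 0.54, 1.88 and 2.77. Replicate 1 was low and replicate 3 high, as for Or2a, which lies on the same arm. In germline the ratios were 1.13, 0.74 and 0.15. All animals compared carry w[1118], an allele of w, the eye colour gene. The name of the germline driver also holds w[+mC]. Whether transgenes added fragments over w in either group was not tested. Both bins stayed called after the G+C correction, and in cyst H3K4me3 the stretch was at 0.67 and 0.53.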
